A study of Culter alburnus with 9 samples.

Results

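Ribosome assembly factors, the proteins that fold, cut and modify ribosomal RNA and carry the unfinished subunits out of the nucleus, were followed in the trunk muscle of *Culter alburnus* with 0, 1 or 2 edited copies of *runx2b*. The members were the 78 rows of the count table whose pathway annotation held the entry for ribosome biogenesis in eukaryotes, plus Nsa2 (ABG768_014874), a large-subunit assembly factor that this entry did not hold and that was added for its known slope over the genotypes. These were 79 of 29791 rows. The 9 fish were F1 juveniles aged 2 months from crosses of founders with one shared type of CRISPR/Cas9 mutation in *runx2b*, so that wild-type fish (Ctrl), heterozygotes (He) and homozygotes (Ho) came from the same kind of cross and were reared under the same conditions without further treatment. Each genotype had 3 fish, each fish gave 1 poly(A) library from tissue of the muscle and myoseptal region, where intermuscular bones form, and the mutation was in every tissue of a mutant fish. The fish had been chosen for typical intermuscular bones of their genotype and similar body size.

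Ribosome assembly starts in the nucleolus, where RNA polymerase I makes a long precursor RNA. The U3 snoRNP and the UTP complexes gather on this precursor to form the small subunit, box C/D and box H/ACA snoRNPs guide its chemical modification, and RNase MRP and exonucleases cut and trim it. GTPases and AAA ATPases then remodel the large subunit, and export factors such as RAN, XPO1 and NMD3 carry the subunits to the cytoplasm, where EIF6 is released before the subunits join.

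Each library held 15869087 to 21009448 counts, of which its top 10 genes made up 40.1% to 52.4%. The edited gene had at most 27 counts in a library and 0 in Ctrl 3 and He 1, which is too few to check the genotypes. Fast-muscle markers summed to between 151682 and 366538 CPM (counts scaled to a common library size with TMM factors), so the labelled muscle was present in every fish, while 6 osteoblast marker rows summed to only 24.6 to 94.7 CPM. Skin epithelial markers (49 rows) summed to 2840, 1413 and 549 CPM in the Ctrl fish, 248, 507 and 459 CPM in the He fish, and 762, 1781 and 646 CPM in the Ho fish, so that Ctrl 1, Ctrl 2 and Ho 2 held the most skin RNA. In bulk tissue, fewer cells of a type and less RNA per cell cannot be told apart.

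The members together took between 0.0669% and 0.123% of the counts of a library. Levels between genes were compared in TPM, which is scaled per gene length. Nsa2 was the most abundant member, with a mean of 192 TPM over the 9 fish, and held 25.2% of the members' summed TPM. RAN, the small GTPase that drives transport through the nuclear pore, followed with 121 TPM and 15.9%. The order of these 2 was not the same in every fish: RAN stood at 178 TPM and Nsa2 at 144 TPM in Ctrl 1, whereas in Ho the lowest Nsa2 value (237 TPM) was above the highest RAN value (132 TPM).

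Below this pair came GTPBP4, a nucleolar GTPase of the large subunit (32.7 TPM), CSNK2B, the regulatory subunit of casein kinase 2 (32.6 TPM), and NMD3, the export adaptor of the large subunit (29.6 TPM). The range of CSNK2B over the fish, 25.6 to 44.8 TPM, held the means of both others, so these 3 were not separated beyond the spread between fish. Of all 79 members, 16 were above 10 TPM, 50 were between 1 and 10 TPM and 13 were below 1 TPM. The tested members had a median of 4.34 TPM, beside 2.07 TPM over all tested genes and 1964 TPM over the cytosolic ribosomal proteins.

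By role, the median level was 12.1 TPM for the box H/ACA snoRNP proteins, 8.14 TPM for the U3 and box C/D proteins, 6.35 TPM for export and release factors, and 4.77 TPM for the UTP-C group with casein kinase 2. It was 4.25 TPM for the large-subunit factors, 3.58 TPM for the small-subunit enzymes, 2.89 TPM for UTP-A and UTP-B, 1.74 TPM for RNase MRP and RNase P and 1.49 TPM for the exonucleases. The snoRNP proteins thus stood above the RNases in median level. Within a role the spread could be wide, from 0.453 TPM (EFL1) to 121 TPM (RAN) among the export and release factors.

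**Figure D1:**
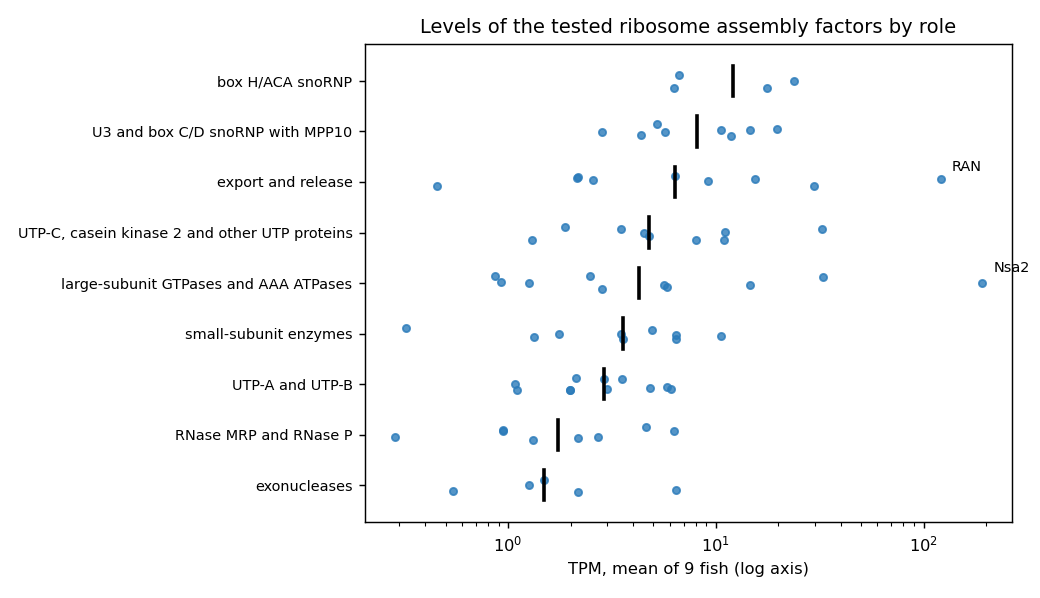
Mean TPM over 9 fish (horizontal, log axis) of each tested ribosome assembly factor (points), grouped by role, with the median of each role as a black bar. Nsa2 and RAN lie far to the right of the other members, and the box H/ACA proteins have the highest role median, 12.1 TPM.

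Of the 79 rows, 6 could not be tested, as they had at most 50 counts over all 9 libraries. They were further rows of orthology names that hold genes such as RPP25, REXO1, NXF1 and CSNK2A1. The other 73 members, the least abundant with 101 counts in all, passed the filter on low counts and were fitted with all 14755 tested genes. The members lay on 21 chromosomes, and 1 had no coordinates. Several orthology names had more than 1 row in this genome: 8 names covered 21 rows. Some of these names join different genes, such as GNL3 and GNL3L or CSNK2A1 and CSNK2A2. Where rows are near copies of 1 gene, reads may have been split between them.

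The members moved together from fish to fish more than from genotype to genotype. For each fish, the log2 CPM of every member was set against that member's mean over the 9 fish. The median of these differences was 0.06, -0.06 and -0.03 in the Ctrl fish, 0.07, 0.45 and -0.13 in the He fish, and -0.06, -0.33 and 0.07 in the Ho fish (numbers 1 to 3 in this order), whereas the median over all tested genes lay between -0.01 and 0.03 in every fish. He 2 was therefore high and Ho 2 low, and the other 7 fish lay near the mean.

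He 2 held the highest value of 39 of the 73 members, where it held the highest value of 8.57% of all genes, and it was above the mean for 68 members. Ho 2 held the lowest value of 25 members, where it held the lowest of 12.4% of all genes, and the highest of 0. Between fish of 1 genotype, the SD of these medians was 0.0624 for Ctrl, 0.293 for He and 0.203 for Ho. The ranges of the 3 genotypes overlapped.

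**Figure D2:**
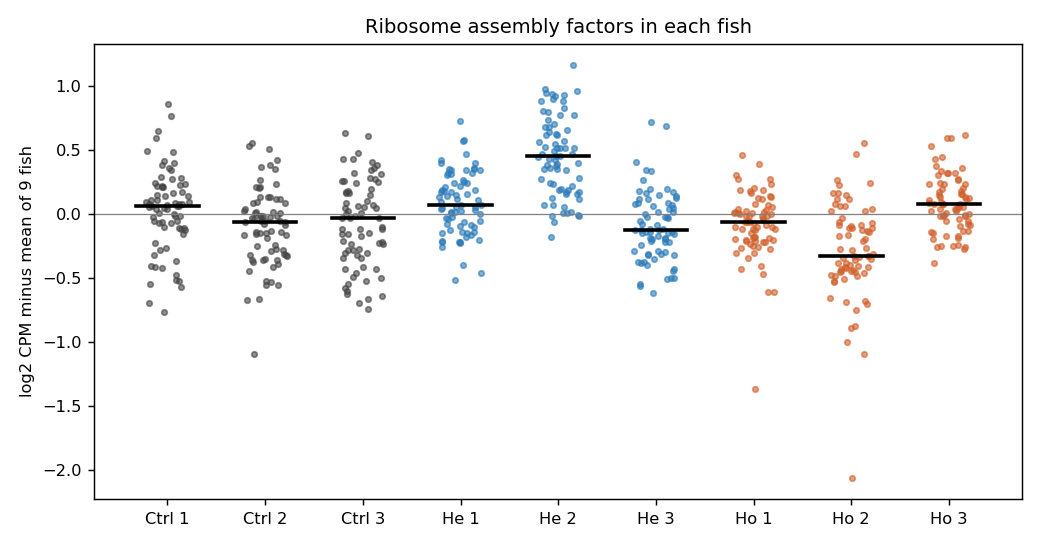
Log2 CPM minus the member's mean over 9 fish (vertical) for each of 73 tested ribosome assembly factors (points) in each fish (horizontal), coloured by genotype, with the median as a black bar. The median of He 2 (0.45) lies above and that of Ho 2 (-0.33) below those of the other fish, which run from -0.13 to 0.07.

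Scaled to library totals instead of TMM, the members' median less that of all genes was 0.43 in He 2 and -0.32 in Ho 2, and between -0.12 and 0.06 in the other fish. In TPM, He 2 did not stand alone before this subtraction, as the median difference on log2(TPM + 1) was 0.34 in Ctrl 1, 0.36 in Ctrl 2 and 0.35 in He 2. There the median over all genes was 0.24, 0.35 and 0.03 in these fish. Before the subtraction Ho 2 was not the lowest fish on either scale. On library totals it held the lowest value of 9 members, where He 1 held that of 27, Ctrl 3 of 20 and He 3 of 14. Of all 14755 genes, Ho 2 held the lowest value of 814, He 1 of 5684, Ctrl 3 of 2286 and He 3 of 2756. In TPM the median of Ho 2, -0.20, was above those of He 1 (-0.30) and He 3 (-0.22). There the medians over all genes were -0.002 in Ho 2, -0.29 in He 1 and -0.14 in He 3. Ho 2 lay furthest below all genes on both scales. The TPM values are shares of a fixed sum, and Ctrl 1 and Ctrl 2 were the fish with the largest TMM factors, 1.30 and 1.40.

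With TMM scaling, 3 lists of ribosome-making factors outside the pathway entry were also high in He 2 and low in Ho 2. Over 46 tested large-subunit factors from a separate list, the median difference was 0.50 in He 2 and -0.41 in Ho 2. It was 0.39 and -0.25 over 31 small-subunit factors, and 0.47 and -0.23 over 23 genes of RNA polymerase I and its factors. A list of 18 MYC family and growth genes did not follow these fish: it had 0.13 in He 2 beside 0.12 in He 1, and -0.07 in Ho 2, which was above Ho 1 (-0.16), He 3 (-0.14) and Ctrl 2 (-0.13). The direction was not limited to ribosome-making lists. Over 44 tested rows of aminoacyl-tRNA biosynthesis, the median difference was highest in He 2 (0.22), beside 0.21 in He 3. It was -0.18 in Ho 2, and only Ctrl 2 was lower (-0.27).

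The genes of the finished ribosome did not follow the pattern of He 2 and Ho 2. Over 91 tested rows of cytosolic ribosomal proteins, the median difference was -0.44, -0.51 and 0.03 in the Ctrl fish, 0.07, -0.07 and 0.32 in the He fish, and 0.21, 0.30 and 0.13 in the Ho fish. Ho 2, lowest for the assembly factors with TMM scaling, was thus among the high fish for ribosomal proteins. As plain medians, Ctrl 1 and Ctrl 2 were the lowest fish with TMM scaling only. On library totals the medians were -0.07, -0.03 and -0.22 in the Ctrl fish, -0.42, 0.05 and 0.12 in the He fish, and 0.20, 0.44 and -0.01 in the Ho fish. He 1 then held the lowest value of 80 of the 91 rows, where it held that of 5684 of 14755 genes. The median over all genes on that scale was 0.39 in Ctrl 1, 0.50 in Ctrl 2 and -0.48 in He 1. Ctrl 1 and Ctrl 2 thus lay below all genes on library totals too, while He 1 did not. Ctrl 1 and Ctrl 2 also had the lowest medians of the fast-muscle markers (-0.56 and -0.42), whose part in the ribosomal protein values was not tested. With TMM scaling, ribosomal protein rows had a median log2 fold change of 0.50 in Ho against Ctrl, and 71 of the 91 were higher in every Ho fish than in any Ctrl fish, where 5.92% of all genes were; edgeR called 0 of them at an adjusted p under 0.05 and 30 had an unadjusted p under 0.05.

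Markers of dividing cells (16 rows) summed to 27.8, 34.4 and 21.4 CPM in the Ctrl fish, 25.7, 43.7 and 39.7 CPM in the He fish, and 20.3, 27.2 and 21.6 CPM in the Ho fish. He 2 had the highest sum and He 3 the next. Ho 2 had the highest sum of immune markers, 199 CPM against 63.0 to 139 CPM in the other fish. Red blood cell markers (10 rows) summed to 1511, 1073 and 318 CPM in the Ctrl fish, 415, 941 and 922 CPM in the He fish, and 499.7, 1266 and 322 CPM in the Ho fish, and their median difference was highest in Ho 2 (2.05). The part of these cell types in the members' values was not tested.

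**Figure D3:**
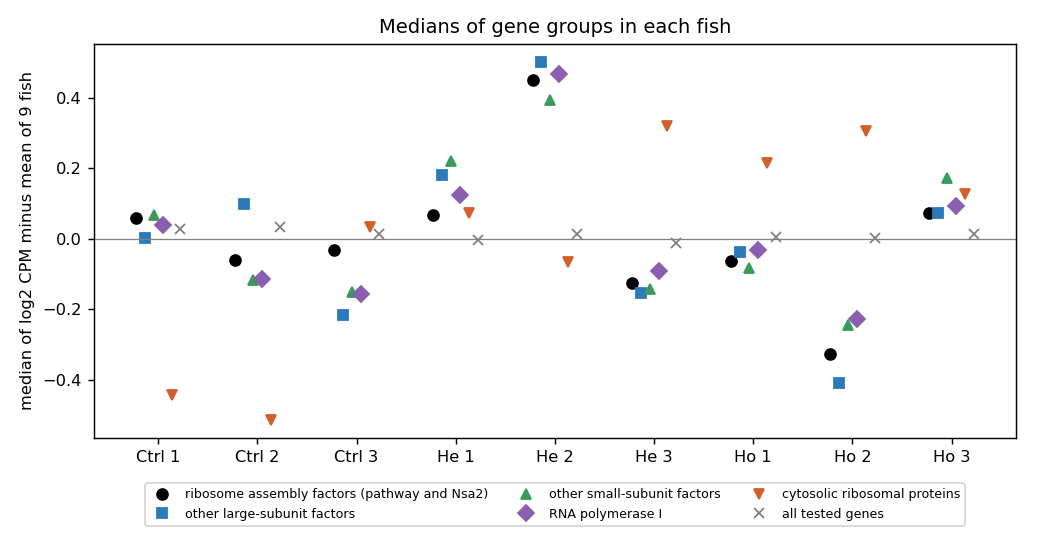
Median over genes of log2 CPM minus the gene's mean over 9 fish (vertical) in each fish (horizontal) for the ribosome assembly factors, 3 other lists of ribosome-making genes, cytosolic ribosomal proteins and all tested genes (symbols). The assembly factors and RNA polymerase I genes are highest in He 2 and lowest in Ho 2. Ribosomal proteins are lowest in Ctrl 1 and Ctrl 2 (-0.44 and -0.51) on this TMM scale. On library totals they are lowest in He 1 (-0.42), where the median of all genes is -0.48.

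Heterozygotes against wild type asks what the loss of 1 allele does. The median log2 fold change of the members was 0.21, beside -0.01 over all genes. Of the 73 members, 54 were above 0, where 49.3% of all genes were. Without He 2 the members' median was 0.02 and 40 members were above 0. With TMM scaling and all fish, this direction was not particular to the members. Of the cytosolic ribosomal protein rows, 90 of 91 were above 0 (median 0.40). Of the rows with the pathway entry for aminoacyl-tRNA biosynthesis, 32 of 44 were (median 0.29). On library totals, which shifted the median of all genes to -0.41, the members' median was -0.16, that is 0.25 above all genes. In TPM it was -0.21, 0.07 above all genes. The TPM fold changes are on log2(TPM + 1), where genes at lower TPM shrink more. Tested members had a median of 4.34 TPM and all tested genes 2.07 TPM, so 0.25 and 0.07 are not like measures.

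No member passed the edgeR test in this comparison (0 called of 73, where 0% of all genes were called; smallest adjusted p = 0.359). At an unadjusted p under 0.05 edgeR had 3 members higher, where 4.13% of all genes were, and 0 lower, where 6.3% were. They were IMP3, RPP25L (ABG768_009087) and AFG2A, the last an AAA ATPase that was picked out after its values were seen. DESeq2 called 1 member, IMP3, where it called 0.628% of all genes higher and 1.19% lower. The count at an unadjusted p under 0.05 was 5 without Ctrl 3 and 10 without He 3. Shares of all genes in these 2 fits are not given here, so nothing is read from these counts. Without overlap between the genotypes, 4 members (3 without Nsa2) were higher in He, where 6.28% of all genes were, and 1 was lower, where 8.32% were. On library totals, a scaling added for these counts after seeing the data, 0 members were higher, where 1.14% of all genes were, and 1 other member was lower, where 12.6% were.

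Homozygotes against wild type asks what the loss of both alleles does. The median log2 fold change was -0.07, beside -0.01 over all genes, with 28 of 73 members above 0, where 48.5% of all genes were. Without Ho 2 it was 0.03 and 38 members were above 0, so the sign of this median rested on 1 fish. EdgeR called 0 members, where it called 0% of all genes (smallest adjusted p = 0.640, that of Nsa2), and had 1 higher and 0 lower at an unadjusted p under 0.05, where 3.59% and 2.91% of all genes were. That count was 5 without Ctrl 3 and 2 without Ctrl 1, He 2 or Ho 1, and the shares of all genes in these fits are not given here. DESeq2 called 1 member higher, where it called 0.34% of all genes, and 0 lower, where it called 0.0971%; this call was lost when any 1 of Ctrl 1, Ctrl 2, Ho 1, Ho 2 or Ho 3 was left out. The member was Nsa2 in both cases, which was added for its slope, so nothing is read from it, and of the other 72 members DESeq2 called 0 and edgeR had 0 at an unadjusted p under 0.05. Without overlap, 6 members (5 without Nsa2) were higher and 2 lower in Ho, where 5.92% and 5.32% of all genes were. On library totals 1 was higher (Nsa2) and 6 were lower, where 2.71% and 7% of all genes were, and none of these 6 (WDR43, UTP18, NOP56, POP7, WDR3 and a CSNK2A2 row) was among the 2 lower with TMM scaling. The median was then -0.31, beside -0.24 over all genes, and in TPM it was -0.26, beside -0.20.

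Homozygotes against heterozygotes asks what the second allele adds. Here the median log2 fold change was -0.29, beside 0.01 over all genes, with 16 of 73 members above 0, where 51.4% of all genes were. This comparison sets He 2 against Ho 2 among its 6 fish: without He 2 the median was -0.09, and without Ho 2 it was -0.23. Without He 2, 21 of 73 members were above 0, where 51.9% of all genes were. Without Ho 2, 18 of 73 members were, where 50.04% of all genes were. Most members thus stayed below 0 in both fits, though each fit still held the other of these fish. EdgeR called 0 members, where it called 0% of all genes (smallest adjusted p = 0.730), and DESeq2 called 0, where it called 0.092% of all genes higher and 0.0425% lower. At an unadjusted p under 0.05 edgeR had 0 higher, where 4% of all genes were, and 2 lower, EIF6 and IMP3, where 2.79% were. Without He 2, and likewise without Ho 2, this count was 0, and without Ctrl 1 or Ctrl 3 it was 4. It was 8 without He 1 and 12 without He 3. Shares of all genes in these fits are not given here, so nothing is read from these counts. Without overlap, 10 members were lower in Ho, where 6.23% of all genes were, and 3 were higher, where 6.03% were; the 3 were Nsa2, GTPBP4 and RPP38. On library totals 1 of the 10 remained lower (NOP10), where 1.86% of all genes were, and Nsa2 and GTPBP4 remained higher, where 7.83% were.

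**Figure D4:**
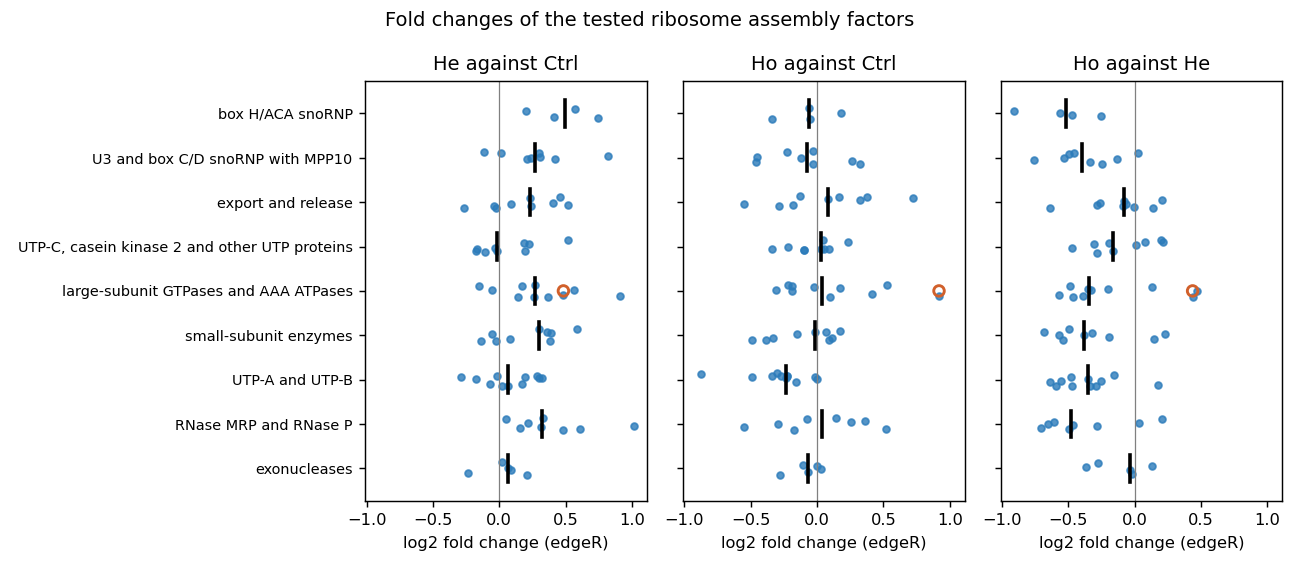
Log2 fold change from edgeR (horizontal) of each tested member (points) by role (vertical), with role medians as black bars and Nsa2 ringed, for the 3 pairs of genotypes. With TMM scaling most points lie right of 0 in He against Ctrl (54 of 73) and left of 0 in Ho against He, and Nsa2 lies right of 0 in all 3 panels. On library totals 18 of 73 are above 0 in He against Ctrl, where 17.9% of all genes are.

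Among the large-subunit factors, Nsa2 stood apart. Nsa2 (chromosome 21, 4437771 to 4442691) is, in yeast, a nucleolar factor of the early large subunit. It had 96.4, 112 and 151 CPM in the Ctrl fish, 155, 163 and 184 CPM in the He fish, and 215, 227 and 237 CPM in the Ho fish. Every He fish was above every Ctrl fish and every Ho fish above every He fish, an order that held for 1 of the 73 members and 0.0542% of all genes (8 genes); the reverse order held for 0 members and 0.0678% of all genes. Nsa2 was put among the members for this slope, so its values are a description.

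On the log2 scale Nsa2 differed from Ctrl by 0.48 (SE 0.23) in He and by 0.92 (SE 0.23) in Ho, and by 0.44 (SE 0.23) between He and Ho, and its slope was 0.46 (SE 0.11) per mutant allele. Leaving out each fish in turn, the slope stayed between 0.39 and 0.55. As Nsa2 was chosen for its slope over these same fish, this range is a description only. As CPM of the library totals, with no TMM factor, Nsa2 stood at 125, 156 and 126 in the Ctrl fish, 110, 176 and 160 in the He fish, and 213, 249 and 215 in the Ho fish. On that scale the Ho fish were still above all others, while Ctrl and He overlapped. The log2 fold change in He against Ctrl was 0.13 on that scale and 0.05 with limma on TPM. The medians of all genes in this comparison were -0.41 and -0.28. The SD of Nsa2 within a genotype was 0.209 on the log2 CPM scale, below the members' median of 0.324, and 13 of the 73 members had a smaller one.

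GTPBP4 was also highest in Ho with TMM scaling. It had 48.4, 62.9 and 62.8 CPM in the Ctrl fish, 63.1, 55.2 and 49.0 CPM in the He fish, and 71.1, 75.3 and 85.3 CPM in the Ho fish. All Ho fish were above all others, and Ctrl and He overlapped. On library totals Ctrl 2 (88.0) was above every Ho fish (70.4, 82.6 and 77.3), and the slope of 0.21 became 0.09, and 0.06 with limma on TPM. Median slopes of all genes were then -0.12 and -0.10. The log2 fold change in Ho against He was 0.47 (SE 0.22, adjusted p = 0.736 from edgeR). The other 8 tested large-subunit factors had log2 fold changes between -0.31 and 0.52 in Ho against Ctrl. In Ho against He, 7 of the 10 in this role were below 0, where 51.4% of all genes were above 0.

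**Figure D5:**
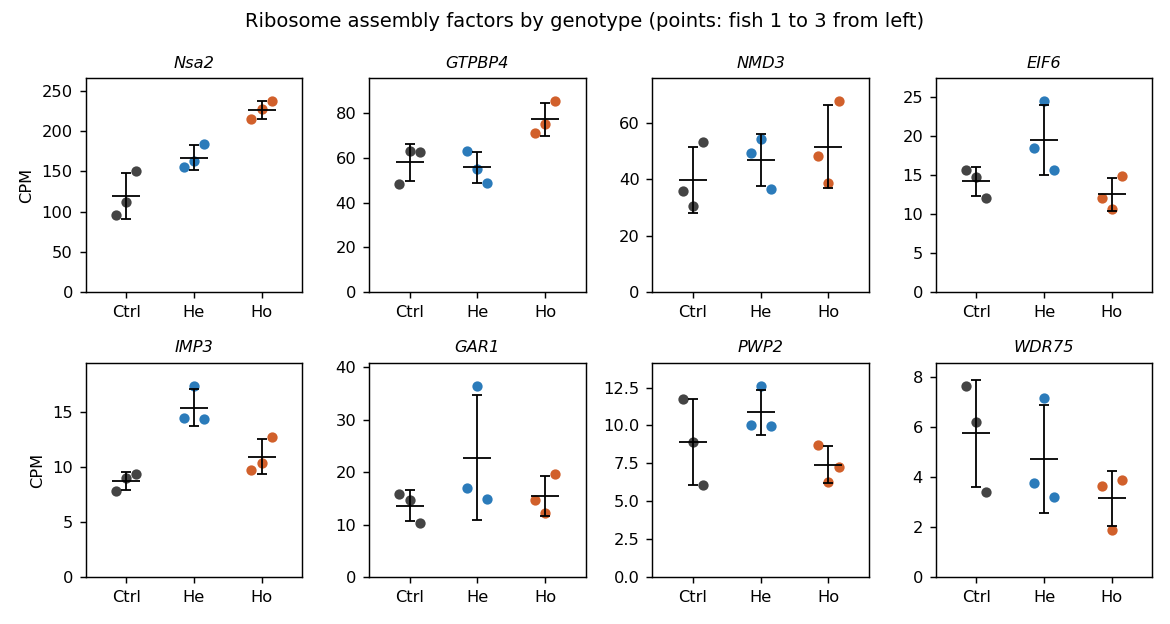
CPM (vertical) of 8 ribosome assembly factors in each fish (points) by genotype, with the mean and SD of 3 fish as black lines. Nsa2 is ordered Ctrl, He, Ho without overlap, IMP3 is highest in the He fish (14.3 to 17.4 CPM), and in GAR1 a single He fish stands at 36.4 CPM.

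In the U3 snoRNP, IMP3, which holds U3 to the precursor RNA together with MPP10, had the smallest unadjusted p of the members in He against Ctrl. It had 7.82, 9.01 and 9.36 CPM in the Ctrl fish, 14.5, 17.4 and 14.3 CPM in the He fish, and 9.71, 10.3 and 12.8 CPM in the Ho fish. The He fish were above all others, and the Ho fish lay above the Ctrl fish by a small margin. The log2 fold change in He against Ctrl was 0.82 (SE 0.19, adjusted p = 0.359 from edgeR); DESeq2 gave 0.84 with an adjusted p of 0.0145. That call was lost when any 1 of Ctrl 1, Ctrl 2, He 1, He 2 or He 3 was left out (adjusted p = 0.292, 0.155, 0.0889, 0.115 and 0.0883 from DESeq2). On library totals He 1 (10.3) lay within the range of the Ctrl fish (7.82 to 12.6), and the log2 fold change was 0.44 (SE 0.30), and 0.34 with limma on TPM. All genes had medians of -0.41 and -0.28 on these scales. In Ho against He, IMP3 had -0.49 (SE 0.19, adjusted p = 0.730 from edgeR).

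NOP56 and NOP58, the paired core proteins of box C/D snoRNPs, had no call: NOP56 ran from 23.6 to 37.5 CPM over the 9 fish with the genotypes overlapping on this scale, and NOP58 had a slope of -0.23 (SE 0.14) per mutant allele with its lowest value, 2.70 CPM, in Ho 2. Of the 8 U3 and box C/D members, 7 were above 0 in He against Ctrl, where 49.3% of all genes were. Without He 2 it was 4 of 8. On library totals and in TPM 1 of 8 was above 0, where 17.9% and 15.1% of all genes were. The role median less that of all genes was 0.28 with TMM scaling, 0.31 on library totals and 0.08 on log2(TPM + 1). This last scale shrinks genes at lower TPM more, so 0.08 is not a like measure. In Ho against He 7 of 8 were below 0, where 51.4% of all genes were above 0. Without He 2 it was 8 of 8, and on library totals and in TPM 6 of 8.

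The 4 box H/ACA proteins, which with their guide RNAs make pseudouridine, followed single fish most closely. All 4 had their highest value in He 2, and their median difference from the mean was 0.83 in He 2 and -0.59 in Ho 2. GAR1 had 15.9, 14.6 and 10.3 CPM in the Ctrl fish, 17.0, 36.4 and 14.8 CPM in the He fish, and 14.6, 12.1 and 19.6 CPM in the Ho fish. He 2 stood alone and the genotypes overlapped. The log2 fold change in He against Ctrl, 0.74 (SE 0.36, adjusted p = 0.513 from edgeR), was 0.23 without He 2. It was 0.37 on library totals and 0.18 with limma on TPM, where the medians of all genes were -0.41 and -0.28. NOP10 had its lowest value, 0.977 CPM, in Ho 2 and between 2.02 and 7.67 CPM in the other fish.

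UTP-A and UTP-B, the first complexes on the precursor, were below 0 in Ho against Ctrl for 11 of 11 members, where 48.5% of all genes were above 0. The median log2 fold change was -0.23, and 0 were called by edgeR or DESeq2. By fish, the median difference from the mean was 0.29, 0.02 and -0.23 in Ctrl, and -0.02, -0.45 and -0.10 in Ho. Ctrl 3 thus lay below Ho 1 and Ho 3, and the 2 genotypes overlapped. Under RLE scaling 9 of 11 were below 0, and without Ho 2 it was 9 of 11 with a median of -0.16. In TPM it was 10 of 11, where only 22.4% of all genes were above 0. WDR75, a UTP-A subunit, had 7.64, 6.19 and 3.42 CPM in the Ctrl fish, 3.77, 7.18 and 3.18 CPM in the He fish, and 3.65, 1.90 and 3.90 CPM in the Ho fish. The genotypes overlapped, and the slope was -0.44 (SE 0.20, adjusted p = 0.852 from edgeR) per mutant allele. PWP2, a UTP-B scaffold, had 10.02, 12.6 and 9.99 CPM in He and 8.69, 6.26 and 7.25 in Ho without overlap, but the Ctrl fish, 11.8, 8.92 and 6.09, spanned most of both ranges. On library totals He and Ho overlapped, and the log2 fold change of PWP2 in Ho against He went from -0.56 to -0.41, and to -0.31 with limma on TPM. All genes had medians of 0.19 and 0.10 on these scales. WDR43 and UTP18, the most abundant of this role at 6.06 and 5.83 TPM, overlapped between all genotypes with TMM scaling, while on library totals both were lower in every Ho fish than in any Ctrl fish.

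In the UTP-C group, CSNK2B ran from 36.8 to 53.1 CPM over all fish and RRP7A from 5.51 to 9.54 CPM, with the genotypes overlapping. FCF1, an endonuclease-like protein of the small subunit, had a log2 fold change of 0.51 (SE 0.24, adjusted p = 0.496 from edgeR) for He against Ctrl. It was 0.10 on library totals and 0.05 with limma on TPM, where the medians of all genes were -0.41 and -0.28. The role as a whole lay near 0, with a median of -0.02 in He against Ctrl and 0.03 in Ho against Ctrl.

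Of the small-subunit enzymes, 8 of 9 had their highest value in He 2. RIOK1, a kinase of late small-subunit steps, had 3.69, 6.14 and 9.43 CPM in the Ctrl fish, 7.53, 9.74 and 6.24 CPM in the He fish, and 4.88, 3.79 and 5.98 CPM in the Ho fish. He and Ho did not overlap, and Ctrl spanned nearly the whole range of both; the log2 fold change in Ho against He was -0.69 (SE 0.34, adjusted p = 0.737 from edgeR). On library totals RIOK1 overlapped between He and Ho, with -0.56, and limma on TPM gave -0.40. Medians of all genes were then 0.19 and 0.10. NAT10, the RNA acetyltransferase, was lower in every Ho fish (3.22 to 3.86 CPM) than in any other fish (4.05 to 7.93 CPM), with a slope of -0.24 (SE 0.16, adjusted p = 0.900 from edgeR), although on library totals He 1 (2.87) was below every Ho fish. RIOK2 and NOB1, which act on the last cut of the small-subunit RNA, were above 0 in He against Ctrl by 0.36 (SE 0.23) and 0.38 (SE 0.20). Both had their highest value in He 2. In this comparison 6 of 9 in the role were above 0, where 49.3% of all genes were, and 5 of 9 without He 2. On library totals it was 3 of 9 and in TPM 1 of 9, where 17.9% and 15.1% of all genes were. BMS1, a GTPase, had a slope of -0.17 (SE 0.13).

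RNase MRP and RNase P share most protein subunits. All 8 tested members were above 0 in He against Ctrl (median 0.32), and 7 of 8 without He 2. On library totals and in TPM 3 of 8 were, where 17.9% and 15.1% of all genes were. The role median less that of all genes was 0.33 with TMM scaling, 0.38 on library totals and 0.19 on log2(TPM + 1). This last scale shrinks genes at lower TPM more, so 0.19 is not a like measure. RPP25L (ABG768_009087) had 1.29, 1.52 and 1.26 CPM in the Ctrl fish, 2.49, 2.56 and 3.25 CPM in the He fish, and 1.66, 2.18 and 2.02 CPM in the Ho fish. The 3 genotypes did not overlap, with He highest and Ho between, whereas on library totals all 3 overlapped; the log2 fold change in He against Ctrl was 1.02 (SE 0.26, adjusted p = 0.359 from edgeR), and DESeq2 gave an adjusted p of 0.105. On library totals this fold change was 0.59 and with limma on log2(TPM + 1) 0.26, where the medians of all genes were -0.41 and -0.28. The 1 added to TPM shrinks changes of genes at low TPM, so these values are not of like size. POP4 and POP7, at 6.31 and 4.61 TPM the most abundant subunits here, had 0.21 (SE 0.24) and 0.32 (SE 0.28) in the same comparison.

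The median difference of the exonucleases stayed between -0.18 and 0.19 in every fish. XRN2, a 5′ to 3′ exonuclease of the nucleus, had 6.22, 5.87 and 5.27 CPM in Ctrl and 4.97, 5.11 and 4.65 in He, without overlap, and 5.10, 5.23 and 5.84 in Ho. The log2 fold change in He against Ctrl was -0.24 (SE 0.18, adjusted p = 0.671 from edgeR), the direction opposite to most members with this scaling. On library totals He 2 (5.52) was above Ctrl 3 (4.41). REXO1 (ABG768_026700) was lower in every Ho fish (1.45 to 1.72 CPM) than in the other fish (1.79 to 2.16 CPM) with TMM scaling and overlapped with them on library totals, and REXO2, the most abundant of this role at 6.44 TPM, overlapped between all genotypes.

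Of the export and release factors, RAN ran from 80.1 to 108 CPM with no difference beyond the spread between fish; its log2 fold change was 0.09 (SE 0.23) in He against Ctrl and 0.08 (SE 0.23) in Ho against Ctrl. NMD3 had 35.7, 30.4 and 53.0 CPM in the Ctrl fish, 49.5, 54.4 and 36.6 CPM in the He fish, and 48.4, 38.5 and 67.6 CPM in the Ho fish, and the genotypes overlapped. EIF6, which keeps the large subunit from joining too early, had 15.6, 14.8 and 12.1 CPM in the Ctrl fish, 18.5, 24.4 and 15.7 CPM in the He fish, and 12.1, 10.7 and 14.8 CPM in the Ho fish. The He fish were above all others, though He 3 stood only just above Ctrl 1; the log2 fold change in Ho against He was -0.64 (SE 0.23, adjusted p = 0.730 from edgeR). On library totals EIF6 overlapped between all genotypes, with -0.51 in this comparison, and limma on TPM gave -0.44. Medians of all genes were then 0.19 and 0.10.

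SBDS and EFL1, which together release EIF6, had slopes of 0.16 (SE 0.13) and 0.36 (SE 0.22) per mutant allele, with overlapping genotypes. On library totals these slopes were 0.07 and 0.24, and with limma on log2(TPM + 1) 0.02 and 0.07. The median slopes of all genes were then -0.12 and -0.10. The 1 added to TPM shrinks changes of genes at low TPM, such as EFL1 at 0.453 TPM. The limma slopes are thus not of like size to the others. Both copies of XPO1, the exportin of both subunits, had negative slopes, -0.28 (SE 0.15) for ABG768_001064 and -0.14 (SE 0.11) for ABG768_009885. Their highest values were in Ctrl 1 (13.96 CPM) for the first and Ctrl 2 (11.7 CPM) for the second.

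Over all members, the slope per mutant allele had a median of -0.03, beside -0.01 over all genes, and 28 of 73 slopes were above 0, where 48.4% of all genes were. On library totals the median slope was -0.155, beside -0.12 over all genes, and in TPM -0.13, beside -0.10, with 10 of 73 above 0 on both scales, where 27.6% and 22.4% of all genes were. EdgeR called 0 slopes, where it called 0% of all genes (smallest adjusted p = 0.825, that of Nsa2), and had 1 higher and 0 lower at an unadjusted p under 0.05, where 3.29% and 2.6% of all genes were. DESeq2 called 1, where it called 0.15% of all genes higher, and 0 lower, where it called 0.0477%; this call was lost without Ctrl 1, Ctrl 2 or Ho 2. Both were Nsa2, chosen for this slope, so nothing is read from them. The count at an unadjusted p under 0.05 was 4 without Ctrl 3 and 3 without He 2, and the shares of all genes in these fits are not given here. Leaving out Nsa2, DESeq2 called 0 slopes, edgeR had 0 of 72 slopes at an unadjusted p under 0.05, and the median slope was -0.03.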

How the data were processed

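RNA-seq of muscle and myoseptal tissue from 9 fish, 3 per genotype, was used. Per the paper's methods, the authors trimmed adaptors, discarded poor reads, aligned the rest to the *C. alburnus* genome (ASM4018292v1) and quantified genes; the aligner and counting tool are not given in the sources used here. The authors deposited estimated counts per gene, not scaled to library size, and TPM, scaled to an equal sum per library; deposited FPKM and genotype means were not used. Of the count values, 94.3% were whole numbers.

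Counts were rounded. Rows passing filterByExpr were scaled by TMM (factors 0.708 to 1.40) and tested by the quasi-likelihood F-test of edgeR 4.0.16 with robust dispersions (common dispersion 0.140) on all 9 libraries in R 4.3.3. P-values were adjusted by Benjamini and Hochberg over 14755 genes, with calls at 0.05. The SE was computed from each log2 fold change and its F statistic. A prior count of 2 was added for log2 CPM. The 1 added to TPM for limma shrinks log2 fold changes, most at low TPM. Values from limma and their medians are thus not of like size to those of edgeR. The scripts were tested on simulated counts. The alternatives were DESeq2 1.42.0, RLE, library totals, no filter, at least 10 counts in every library, limma 3.58.1 on log2(TPM + 1), fits of only the 6 libraries of a pair, a replicate block, and each library left out. Tables and figures used Python 3.11.15 with pandas 2.3.3, numpy 2.4.6 and, for plots, matplotlib 3.10.9.

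The members, lists and tests were chosen with earlier results of these data known. The genes to name were Nsa2, members called by either tool, and, per role, the 2 of highest TPM and the 1 of smallest unadjusted p, plus the 6 rising and 6 falling members of smallest p for the slope, and any member at 0 counts in 1 genotype and above 10 in another (there was none); others were named after their values were seen. Gene names came from the deposited annotation, coordinates from the RefSeq table of the same assembly by locus tag. A fish is 1 library, so p-values set genotype differences against the spread between libraries. That spread joins differences between fish with those of tissue sampling and library making, which cannot be told apart here. Depth limits members of few counts.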

Additional observations from a re-analysis of the deposited data

How the results depend on the processing

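EdgeR called 0 members in each comparison and for the slope under every scaling, filter, block and left-out library tried, and limma on TPM also called 0. DESeq2 called 1 member each in He against Ctrl, Ho against Ctrl and for the slope. Its Nsa2 call in Ho against Ctrl was lost without Ctrl 1, Ctrl 2, Ho 1, Ho 2 or Ho 3 (adjusted p = 0.203, 0.299, 0.119, 0.210 and 0.0882 from DESeq2), and that for the slope without Ctrl 1, Ctrl 2 or Ho 2 (0.124, 0.245 and 0.0827). These DESeq2 runs were added after seeing the data.

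The median log2 fold change became -0.16 on library totals and -0.21 with limma on TPM in He against Ctrl, -0.31 on library totals in Ho against Ctrl and -0.081 with limma on TPM in Ho against He. Those scalings put the median of all genes at -0.41, -0.24 and 0.19 in the 3 comparisons on library totals and at -0.28, -0.20 and 0.10 in TPM. The TPM medians are on log2(TPM + 1), which shrinks genes at lower TPM more, so they are not like measures to the others. Members at an unadjusted p under 0.05 were 0 on library totals and 0 with limma on TPM in He against Ctrl, 2 with DESeq2 and 2 with no filter in Ho against Ctrl, and 4 with DESeq2 and 6 with only the 6 libraries in Ho against He. For the slope they were 2 with DESeq2, 2 on library totals, 3 with no filter and 2 with at least 10 counts in every library. Shares of all genes under these alternatives are not given here, so nothing is read from these counts. Members without overlap on library totals became 0 higher in He against Ctrl, where 1.14% of all genes were. In Ho against Ctrl they became 1 higher and 6 lower, where 2.71% and 7.0% of all genes were. In Ho against He 1 was lower, where 1.86% of all genes were. The cause was not tested.

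With each library left out in turn, the median ran from 0.02 (without He 2) to 0.35 (without He 3) in He against Ctrl, from -0.19 to 0.03 in Ho against Ctrl, from -0.42 to -0.09 in Ho against He and from -0.07 to 0.02 for the slope. The members at an unadjusted p under 0.05 ran from 2 to 10, from 1 to 5, from 0 to 12 and from 1 to 4. Shares of all genes in these fits are not given here, so nothing is read from these counts.

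Correlations over genes ran from -0.26 to 0.26 between same-numbered fish and from -0.33 to 0.30 between fish of different number. With 3 fish per genotype, these values cannot show whether same-numbered fish shared a batch. With the replicate block, edgeR called 0 members, and the medians were 0.22, -0.08, -0.30 and -0.04.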
